A study of Mus musculus with 60 samples.

Results

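Short interspersed elements (SINEs) were described as 31 subfamilies of repeats counted in 60 total RNA libraries of mouse embryonic stem cells (mESCs). Members were the repeats whose names start with B1, B2_, B3, B4, PB1, RSINE, MIR, or ID followed by a digit or the sign _, and that held at least 100 counts over all libraries. All 31 names that matched passed this minimum, of 1146 repeat subfamilies and 56633 genes and repeats in all. The lowest total was the 64228 counts of ID2 and the highest the 3702810 counts of B2_Mm1a. They were grouped into 8 families by the start of their names alone, without a repeat annotation. B1 held 10 members, PB1 5, ID and MIR 4 each, B2 3, B3 and B4 2 each, and RSINE1 stood alone. All 31 passed the filter on low counts in every comparison.

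SINEs are short repeats that carry no protein-coding sequence and were copied into the genome with the machinery of LINE elements. B1 and PB1 descend from the 7SL RNA of the signal recognition particle, B2, B3 and the much older MIR from transfer RNAs, and ID from a tRNA-like sequence shared with the neuronal BC1 RNA, while B4 combines ID-like and B1-like parts. RNA polymerase III (Pol III) can transcribe young copies from an internal promoter of an A box and a B box, but copies also lie in introns and untranslated regions, where RNA polymerase II reads through them, so counts on a subfamily can come from either source.

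Bc1, the intact Pol III gene related to ID, is shown because it holds both boxes of such an internal promoter and was measured beside the members. Bases in capitals are matches on the transcribed strand to the A box consensus of Pol III genes or to a B box (GTTCNNNNC). It is a single-exon lincRNA gene at GRCm38 chr7:144914470-144914637 on the plus strand.
Bc1: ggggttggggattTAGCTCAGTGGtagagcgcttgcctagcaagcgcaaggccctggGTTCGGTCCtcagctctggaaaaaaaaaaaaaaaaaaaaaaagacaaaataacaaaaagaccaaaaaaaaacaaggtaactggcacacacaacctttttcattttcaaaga
Read on both strands, windows of 168 bases at RefSeq promoters held the A box in 2.58% of cases and the B box in 23.4%.

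The cells were E14JU mESCs in which POLE4, a subunit of DNA polymerase epsilon that passes parental histones to the leading strand, carried a degradation tag (POLE4-dTAG), so every group shared the tagged allele. Cells received DMSO (Ctrl) or 1 µM dTAG ligand (dPOLE4), in a line with wild-type MCM2 or in a line tagged separately, labelled as 1 clone, with the MCM2-2A mutation in the histone-binding part of the helicase subunit MCM2 (Ctrl MCM2-2A, dPOLE4 MCM2-2A). In the retinoic acid (RA) experiment, cells treated for 24 h in serum with LIF were collected (T0) or moved to RA medium without LIF for 12, 24 or 60 h (T12, T24, T60). In a separate experiment, cells were treated for 96 h in serum with LIF. Each of the 20 groups held 3 libraries, 48 for RA and 12 for 96 h. An effect of MCM2-2A cannot be told apart from a difference between the 2 lines, and the study's methods call the 3 replicates biological without saying more of how they were grown.

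Libraries held 10461077 to 46609151 counts in the RA experiment and 7126100 to 23598266 at 96 h, of which 203521 to 1542615 lay on the 31 SINE subfamilies. No replicates were alike within sampling noise. The 8 mESC markers summed to 3658 to 3790 CPM (counts scaled to library size) at T0 in Ctrl and to 324 to 415 CPM at T60. At T60 their sum was 742 to 929 CPM in Ctrl MCM2-2A, so the lines also differed in these markers when SINEs were compared. Pole4 RNA in dPOLE4 differed from Ctrl at T0 by -0.01 on the log2 scale. This does not check a tag that acts on the protein. Between the lines at T0, Mcm2 RNA (-0.70) and Pole4 RNA (-0.68) were both lower in Ctrl MCM2-2A than in Ctrl. Pole4 RNA was also lower there at T12 (-0.75) and T24 (-0.61). The Ctrl MCM2-2A T0 replicate 1 stood apart, with the lowest SINE share of its group. In these bulk samples, fewer cells of a type and less RNA per cell cannot be told apart.

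The SINE share of all counts was lower late in RA than before it in Ctrl cells. It was 2.93%, 3.28% and 3.20% in the libraries at T0 and 1.97%, 2.06% and 1.95% at T60, with no overlap. The mean went from 3.14% ± 0.18 (SD, n = 3) at T0 to 3.05% at T12, 2.71% ± 0.15 at T24 and 1.99% ± 0.06 at T60. The T60 mean was 0.634 of the T0 mean, and both T24 and T60 lay apart from T0 (two-sided exact permutation test, p = 0.1, the smallest that 3 against 3 allows). B2 made up 43.9% of the T60 decrease and B1 22.6%, while PB1, with PB1D7 at high counts, made up 0.782%. All SINEs were 37.3% ± 1.8 of the counts on repeats at T0 and 33.4% ± 0.3 at T60 (SD, n = 3).

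**Figure D1:**
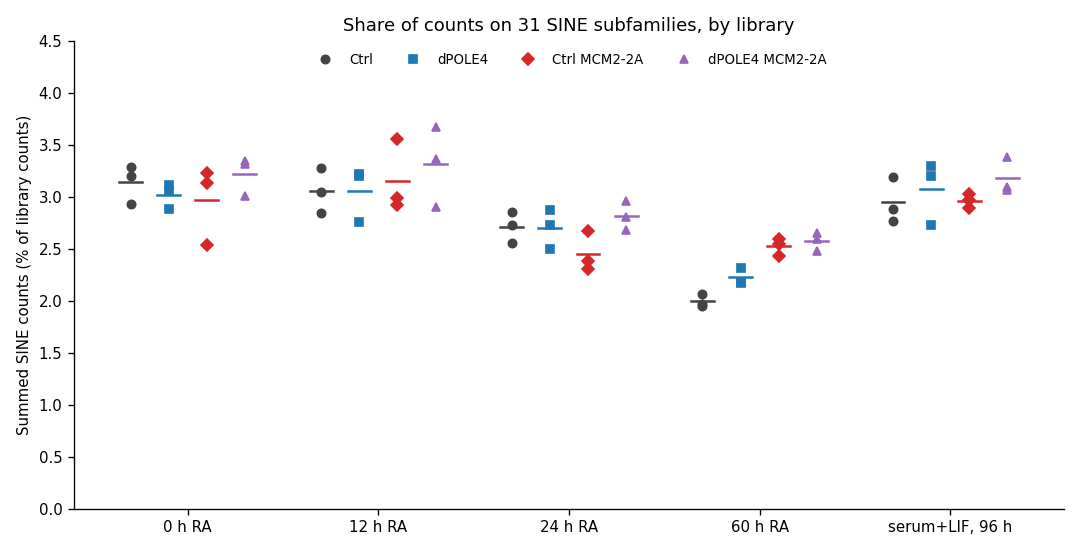
Summed counts on the 31 SINE subfamilies as a percentage of all counts of a library, for the 4 conditions at T0, T12, T24, T60 and in the separate 96 h experiment; each point is 1 library and each bar a group mean. The Ctrl libraries at T60 lie between 1.95% and 2.06%, below every library of the other 3 conditions at that time.

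At T60 of RA, 30 of the 31 SINE subfamilies had fallen in Ctrl cells and 28 of them were differentially expressed (DE), by edgeR's quasi-likelihood test with Benjamini-Hochberg adjustment over 18082 features. Called means an adjusted p under 0.01, and DE also a log2 fold change beyond 0.58, or 1.5-fold. Among all tested features, 23.8% were DE and lower and 32.7% were lower at an adjusted p under 0.01. The median over the 31 was -0.70 and over the 817 other repeats -0.80, with 748 of these lower, while the median of all features was -0.01. With scaling factors taken from those repeats, the median of the 31 turned to 0.06 and 3 members were DE. Without Ctrl T60 replicate 1, 18 members were DE in place of 28.

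B2 showed the largest decreases of the 8 families. B2_Mm1a was at 3429, 3520 and 4250 CPM in Ctrl at T0 and at 1659, 787 and 876 CPM at T60. Replicate 1 was the highest at T60, yet below every T0 library. The decrease was -1.77 on the log2 scale (SE 0.20, adjusted p = 1.31e-06, edgeR), or -2.18 without that library.

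B2_Mm1t went from 2097, 2216 and 2725 CPM to 1166, 615 and 658 CPM (log2 fold change -1.55, SE 0.18, adjusted p = 1.72e-06, edgeR). B2_Mm2 went from 2867, 3027 and 2898 CPM to 1445, 1457 and 1407 CPM (-1.05, SE 0.06, adjusted p = 9.98e-10). Neither pair of groups overlapped. With scaling to the other repeats, B2_Mm1a and B2_Mm1t were still DE and lower, at -0.98 and -0.75, and B2_Mm2 was at -0.29 with an adjusted p of 0.0525. The B2 subfamilies are near-identical, so reads can be split between them in counting, and the order within the family is uncertain.

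B2 members were called lower at T24 and not at T12. At T12, B2_Mm1a in Ctrl was at 3745, 7064 and 4475 CPM, spread over a wider range than at T0, and not called (log2 fold change 0.45, SE 0.18, adjusted p = 0.069). B2_Mm1a (0.74, adjusted p = 0.0055) and B2_Mm1t (0.72, adjusted p = 0.0063) were DE and higher at T12 with scaling to the other repeats. At T24 it was at 2065, 2126 and 1872 CPM, below every library of T0 and T12. B2_Mm1a and B2_Mm1t were the 2 DE members at T24 (-0.88, adjusted p = 9.05e-08, and -0.82, adjusted p = 3.49e-07), beside 8.32% of all features DE and lower, and B2_Mm2 fell by 0.45 on the log2 scale (adjusted p = 3.2e-07).

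**Figure D2:**
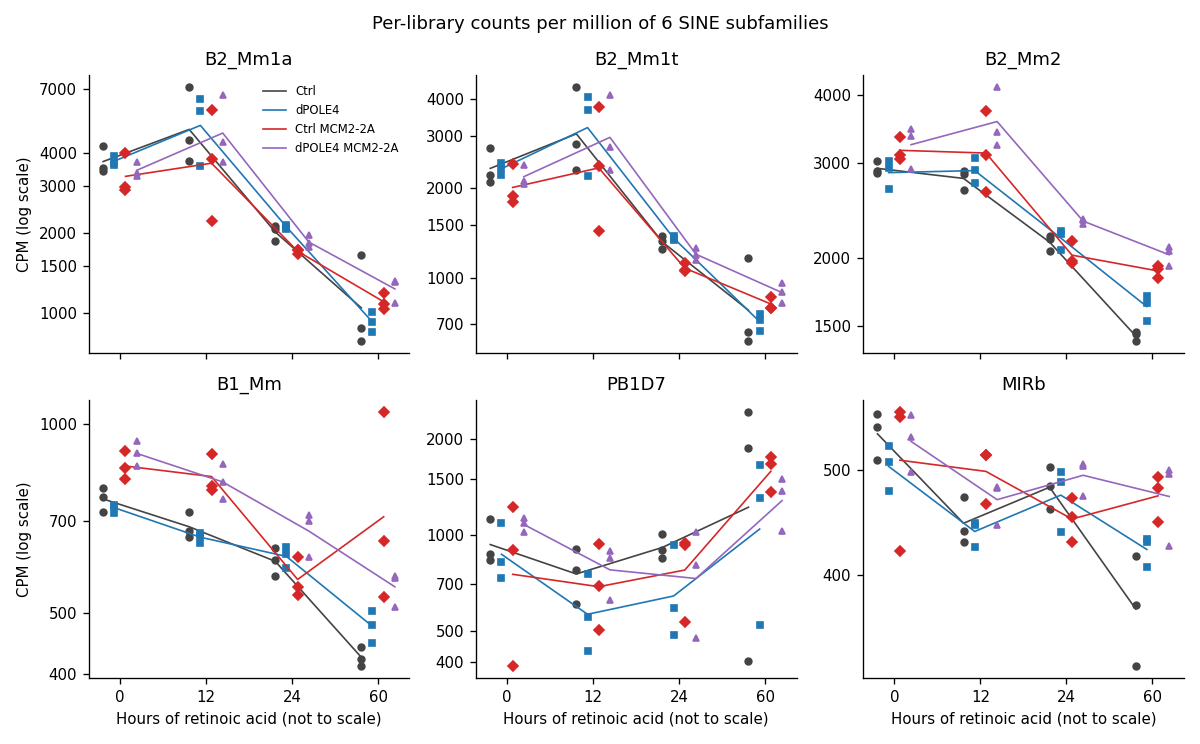
CPM of B2_Mm1a, B2_Mm1t, B2_Mm2, B1_Mm, PB1D7 and MIRb at T0, T12, T24 and T60 on a log axis; each point is 1 library, colours are the 4 conditions and lines join geometric means of 3 libraries. B2_Mm1a spreads from 787 to 7064 CPM over all RA libraries and lies lowest at T60 in each condition, while PB1D7 differs widely between replicates.

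B1, the most numerous family, fell as a whole at T60, with all 10 members DE and a median of -0.71. B1_Mus1, its member with the most counts, was at 1776, 1993 and 1936 CPM at T0 and at 1130, 1241 and 1169 CPM at T60 in Ctrl. B1_Mm, one of the youngest B1 subfamilies, fell by 0.86 on the log2 scale (SE 0.06, adjusted p = 6.64e-09), from 724, 792 and 767 CPM to 422, 441 and 412 CPM. B1_Mus2 fell by 0.75 (SE 0.07, adjusted p = 6.93e-08). In none of these did the groups overlap. With scaling to the other repeats, B1_Mm was at -0.10 and B1_Mus2 at 0.01, neither of them called.

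The families of older copies fell by similar amounts. B3, a relative of B2, went from 2714, 3152 and 3073 CPM to 1591, 2037 and 1774 CPM in Ctrl (log2 fold change -0.75), less than the B2 members. B4A was at 1332, 1532 and 1519 CPM at T0 and 888, 1106 and 969 CPM at T60 (-0.58). RSINE1 was at 1681, 1935 and 1887 CPM at T0 and 1045, 1347 and 1147 CPM at T60 (-0.66). In each of these the libraries at T60 lay below those at T0.

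ID_B1, named after both ID and B1, went from 1909, 2156 and 2141 CPM to 1120, 1464 and 1314 CPM (-0.69). PB1D10, the proto-B1 subfamily with the most counts, went from 1070, 1226 and 1166 CPM to 624, 837 and 740 CPM (-0.67). MIRb, an ancient subfamily with copies in most mammals, went from 511, 562 and 547 CPM to 331, 417 and 375 CPM (-0.55). Again no libraries overlapped. MIRb and MIR3 (-0.42) fell past an adjusted p of 0.01 but not past the fold, and the 4 MIR members had the smallest family median, -0.57.

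PB1D7 was the 1 member that did not fall at T60 in Ctrl. It was at 834, 1116 and 867 CPM at T0 and at 2417, 402 and 1864 CPM at T60, with replicate 2 below and the other libraries above the whole T0 range. The difference was 0.71 on the log2 scale (SE 0.39, adjusted p = 0.11, edgeR), and 1.54 with scaling to the other repeats (adjusted p = 8.52e-05), where PB1D7 was DE and higher. Its within-group SD over the 48 RA libraries, 0.56 on the log2 scale, was the highest of the 31.

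At T12, 20 members had fallen in Ctrl at an adjusted p under 0.01, beside 9.03% of all features, and none was DE by edgeR or DESeq2, where 4.04% of all features were DE and lower, with 30 at an unadjusted p under 0.05. The 20 held 6 of B1, 3 each of ID, MIR and PB1, 2 each of B3 and B4, and RSINE1, but no B2 member. The share of all features at an unadjusted p under 0.05 was not computed, here or in the comparisons below. The median over the 31 was -0.27 and over the other repeats -0.26, and 0.00 with scaling to those repeats, where B2_Mm1a and B2_Mm1t were the DE members. At T24, 19 members had fallen, beside 20.5% of all features, among them 8 of B1 and all 3 of B2, with a median of -0.19 in the members and -0.19 in the other repeats, and 0.01 with scaling to them.

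All 3 B2 members were DE and lower at T60 in all 4 conditions, while at most 2 other members were DE in each condition outside Ctrl. In dPOLE4, 29 members fell at an adjusted p under 0.01, beside 33.2% of all features, with a median of -0.34 (other repeats -0.41). The 4 DE members were B2_Mm1a (-2.03, SE 0.06), B2_Mm1t (-1.73, SE 0.06), B2_Mm2 (-0.85) and B1_Mm (-0.65), beside 22.6% of all features DE and lower. MIR3 (-0.16) and PB1D7 (0.38) were not called.

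In Ctrl MCM2-2A, 5 members fell at an adjusted p under 0.01, beside 31.2% of all features, with a median of -0.19 (other repeats -0.30). That median was -0.34 without Ctrl MCM2-2A T0 replicate 1, the library that stood apart, and -0.10 without T0 replicate 3. B2_Mm1a (-1.57, SE 0.12), B2_Mm1t (-1.30, SE 0.10) and B2_Mm2 (-0.73, SE 0.08) were DE and lower, beside 21.5% of all features, and B1_Mus1 (-0.43) and B1_Mus2 (-0.53) were also lower. PB1D7 was DE and higher (0.94, SE 0.28, adjusted p = 0.00881, edgeR), beside 26.6% of all features, from 389, 1219 and 895 CPM at T0 to 1748, 1360 and 1660 CPM at T60. That call did not hold in DESeq2 (adjusted p = 0.0513) and was kept in 2 of the 6 fits that left out 1 library, with values from 0.60 to 1.31. It was lost without Ctrl MCM2-2A T0 replicate 3 and without each of the T60 replicates.

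In dPOLE4 MCM2-2A, 9 members fell, beside 25.9% of all features, with a median of -0.27 (other repeats -0.30). The 5 DE members, beside 19.4% of all features DE and lower, were B2_Mm1a (-1.51, SE 0.11), B2_Mm1t (-1.32, SE 0.10), B1_Mm (-0.73, SE 0.09), B2_Mm2 (-0.71, SE 0.10) and B1_Mus2 (-0.59, SE 0.09). B1_Mus2 lay close to the fold minimum, and its DE call was lost in DESeq2 (-0.56) and without replicate 2 or 3 of T0 or replicate 1 or 3 of T60 (down to -0.53). With scaling to the other repeats, the medians turned to 0.06 in dPOLE4, 0.09 in Ctrl MCM2-2A and 0.02 in dPOLE4 MCM2-2A, and B2_Mm1a remained DE at -1.63, -1.36 and -1.23. B2_Mm1t also remained DE, B2_Mm2 was DE in none of the 4 conditions, and in dPOLE4 MCM2-2A 2 members were DE in place of 5.

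By family, the medians in Ctrl and Ctrl MCM2-2A were -1.55 and -1.30 in B2, -0.71 and -0.20 in B1, -0.73 and -0.28 in B3, -0.62 and -0.14 in B4, -0.68 and -0.17 in ID, and -0.57 and -0.02 in MIR. In dPOLE4 they were -1.73 in B2, -0.37 in B1 and -0.24 in MIR, and in dPOLE4 MCM2-2A -1.32, -0.29 and -0.08. These are medians on the main scaling, under which the other repeats fell too, and those of Ctrl MCM2-2A rest on the T0 libraries as above.

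**Figure D3:**
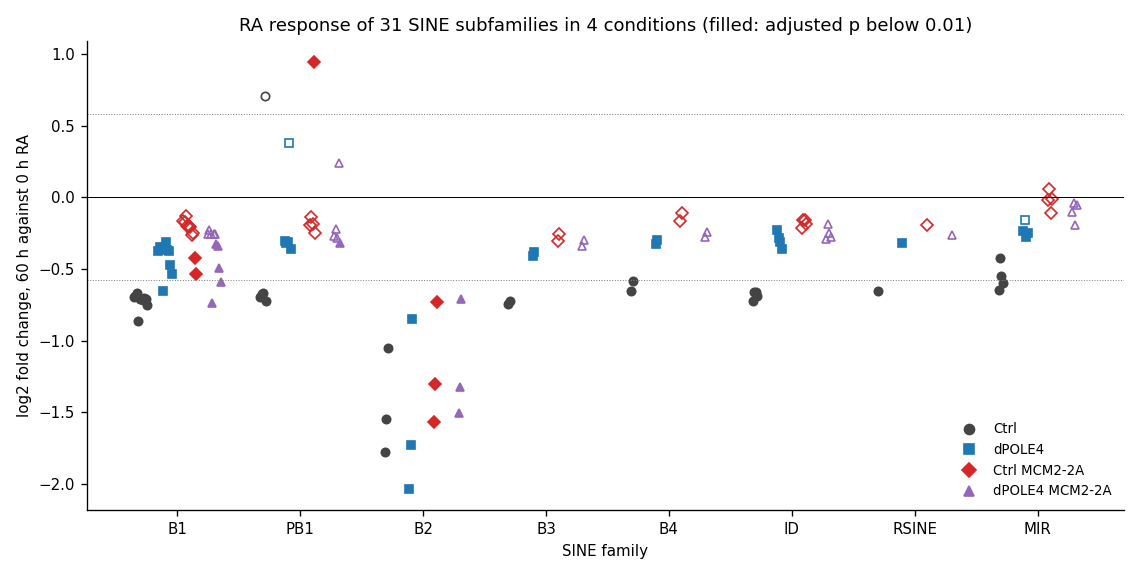
Log2 fold change from T0 to T60 of each of the 31 SINE subfamilies by family, in the 4 conditions; filled points have an adjusted p under 0.01 (edgeR) and dotted lines mark a fold of 1.5. B2 members lie at -0.71 or lower in every condition and PB1D7 lies above 0, and with scaling to the other repeats the medians of the 31 turn to values just above 0.

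The difference between RA responses was tested as an interaction. Ctrl MCM2-2A minus Ctrl was positive in all 31 members, with a median of 0.45 in the members and 0.45 in the other repeats, and 0.02 with scaling to those repeats. None passed the adjusted threshold in edgeR (lowest adjusted p = 0.0151), where 12.6% of all features did and 8.87% were DE. At an unadjusted p under 0.05 there were 27 members, and DESeq2 called 1 member DE. Of the 31, B1_Mm had the largest value (0.63, SE 0.21) and B2_Mm1a the smallest (0.18, SE 0.26), with MIR3 at 0.45 (SE 0.15). The count of DE members depended on single libraries: it was 8 without Ctrl T60 replicate 2, 2 without Ctrl T60 replicate 1, 3 without Ctrl MCM2-2A T0 replicate 3 and 1 without Ctrl MCM2-2A T60 replicate 1, and it was 1 with a replicate block and 3 without the filter on low counts.

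The response of dPOLE4 minus that of Ctrl had a median of 0.35, as in the other repeats (0.35), and -0.02 with scaling to them. No member was called by edgeR (lowest adjusted p = 0.147) or DE by DESeq2, and 28 were at an unadjusted p under 0.05. At the adjusted threshold, 0.0104% of all features were called. In dPOLE4 MCM2-2A minus Ctrl MCM2-2A the median was -0.05 (other repeats 0.02), with 1 member at an unadjusted p under 0.05, none called by either tool and 0.254% of all features called. That 1 member was B1_Mm (-0.51, SE 0.23, adjusted p = 0.388).

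At T60 itself, SINEs were higher in Ctrl MCM2-2A than in Ctrl. The SINE share was 2.55%, 2.59% and 2.43% against 1.97%, 2.06% and 1.95%, with no overlap, a ratio of means of 1.27 and a difference of 0.531 percentage points (exact permutation p = 0.1). In edgeR, 21 of the 31 members were higher at an adjusted p under 0.01, beside 14.7% of all features, and the median was 0.33 in the members and 0.30 in the other repeats. With scaling to those repeats it was 0.05. B1_Mm was the 1 DE member, beside 8.96% of all features DE and higher, and with that scaling none was.

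B1_Mm at T60 was at 422, 441 and 412 CPM in Ctrl and at 531, 651 and 1045 CPM in Ctrl MCM2-2A. The groups did not overlap, and Ctrl MCM2-2A replicate 3 was the highest of them all. The difference was 0.81 (SE 0.16, adjusted p = 9.61e-04, edgeR), 0.50 without that library (adjusted p = 6.22e-04), which ended the DE call, and the adjusted p was 0.0102 without Ctrl T60 replicate 3 and 0.0264 in DESeq2.

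Higher members by family were 8 of 10 B1, all 4 MIR, 4 of 5 PB1, both B4, 2 of 4 ID and 1 of 3 B2. The single B2 member was B2_Mm2 (0.41, SE 0.06, adjusted p = 1.07e-04), at 1445, 1457 and 1407 CPM in Ctrl and 1933, 1910 and 1838 CPM in Ctrl MCM2-2A. B2_Mm1a (0.01, SE 0.19) and B2_Mm1t (0.02, SE 0.16) had differences near 0 with wide errors. Without Ctrl T60 replicate 1 these were 0.41 (adjusted p = 3.2e-04) and 0.36 (adjusted p = 3.47e-04), so both values near 0 rested on that library. MIR (0.43, SE 0.08) and MIR3 (0.40, SE 0.07) were among the larger values, with MIR3 at 139, 158 and 146 CPM in Ctrl and 198, 199 and 182 CPM in Ctrl MCM2-2A, not overlapping.

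B3 (0.31), B3A (0.29) and RSINE1 (0.30) had differences of similar size that were not called. B3 was at 1591, 2037 and 1774 CPM in Ctrl and at 2190, 2366 and 2093 CPM in Ctrl MCM2-2A, which did not overlap. Beside these, 7 of the 8 mESC markers were DE and higher in Ctrl MCM2-2A at T60 (median 1.18), as were 4 of 6 endoderm markers (summed 528 to 586 CPM, Ctrl 293 to 365), and 3 of 7 RA and neural markers (811 to 833, Ctrl 866 to 1004) and 3 of 6 fibroblast markers (140 to 162, Ctrl 329 to 456) were DE and lower, with Thy1 of the fibroblast list DE and higher (1.98). Of the 18056 features tested between the lines at T60, 1618 were DE and higher and 1448 DE and lower. No mESC marker was at 0 in either group. DE and higher was also Kcnq1ot1, a nuclear lncRNA from a long repeat-containing locus (0.63, SE 0.12). Their part in the SINE differences was not tested.

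**Figure D4:**
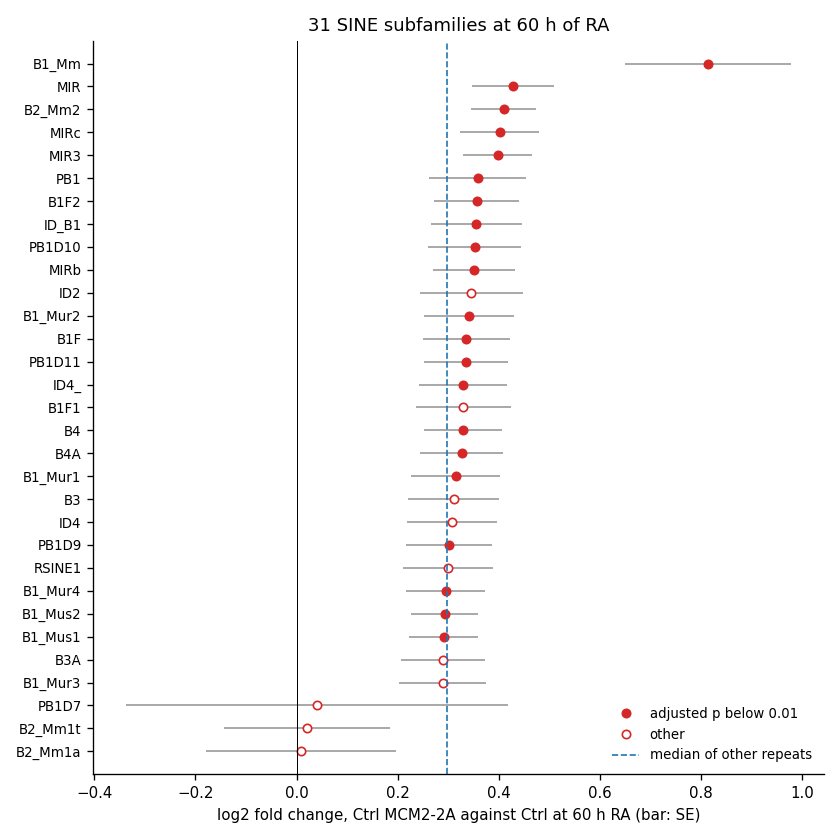
Log2 fold change of Ctrl MCM2-2A against Ctrl at T60 for the 31 SINE subfamilies, with bars of 1 SE; the dashed line is the median of the other repeats, 0.30. Most members lie around that line, B1_Mm lies at 0.81, and B2_Mm1a, B2_Mm1t and PB1D7 lie near 0, for the B2 members only with Ctrl replicate 1 included; with scaling to the other repeats the median of the 31 is 0.05.

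The median difference between the lines was small at T0, T12 and T24. At T0 the median was -0.15 (other repeats -0.17), and 0.01 without Ctrl MCM2-2A T0 replicate 1, with 27 members lower, none called by edgeR or DE by DESeq2, 1 at an unadjusted p under 0.05 and 34% of all features called. At T12 it was 0.14 (other repeats 0.10), with B1_Mm higher (0.28, adjusted p = 0.0092), beside 11.2% of all features higher. At T24 it was -0.15 (other repeats -0.18), with 4 members lower, beside 16.9% of all features, namely B2_Mm1t (-0.27), ID2 (-0.23), B2_Mm1a (-0.22) and PB1D11 (-0.18). With scaling to the other repeats the medians at T0, T12 and T24 were 0.02, 0.04 and 0.02, so that their signs did not differ. No member was DE at T12 or T24 by either tool, beside 14.7% and 17.4% of all features. B1_Mm was at 661, 725 and 675 CPM in Ctrl at T12 and at 898, 785 and 798 CPM in Ctrl MCM2-2A, which did not overlap.

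POLE4 depletion moved no SINE subfamily past the threshold in edgeR, in either line and at any time, and none was DE by DESeq2. In the line with wild-type MCM2, the median was -0.14 at T0, -0.03 at T12, -0.02 at T24 and 0.22 at T60, against -0.16, -0.01, -0.04 and 0.21 in the other repeats. Unadjusted p was under 0.05 in 13 members at T0, all of them lower, 1 each at T12 and T24, and 28 at T60, where the lowest adjusted p was 0.0717. With scaling to the other repeats the medians at T0 and T60 were 0.02 and 0.01. Of all features, 0% were called at the adjusted threshold at T0, T12 and T24 and 0.432% at T60. Their share at the unadjusted threshold was not computed, and most members varied together between replicates. Without dPOLE4 T24 replicate 2, 1 member was DE at T24.

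At T60 the SINE share was 2.32%, 2.18% and 2.17% in dPOLE4, above all 3 Ctrl libraries, with a ratio of means of 1.12 (exact permutation p = 0.1). B2_Mm2 was at 1703, 1531 and 1650 CPM in dPOLE4, above the Ctrl range, with a difference of 0.20 (SE 0.06, adjusted p = 0.132). B2_Mm1a was at 1007, 846 and 926 CPM, within the Ctrl range of 787 to 1659 CPM (-0.24, SE 0.18, adjusted p = 0.602).

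In the MCM2-2A line, dPOLE4 against Ctrl had medians of 0.07 at T0, -0.06 at T12, 0.17 at T24 and 0.02 at T60, against 0.03, -0.08, 0.16 and 0.08 in the other repeats. Unadjusted p was under 0.05 in no member at T0 and T12, in 24 at T24 (lowest adjusted p = 0.0503, B1_Mm, 0.26) and in 2 at T60. Of all features 0.0715%, 0.852%, 2.35% and 3.51% were called at the adjusted threshold. With scaling to the other repeats the medians at T24 and T60 were 0.04 and -0.06. B1_Mm at T60 was at 568, 573 and 512 CPM in dPOLE4 MCM2-2A, which overlapped the 531, 651 and 1045 CPM of Ctrl MCM2-2A.

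After 96 h in serum with LIF, without RA, differences were small. The median was 0.04 for dPOLE4 against Ctrl (other repeats 0.02), 0.06 for dPOLE4 MCM2-2A against Ctrl MCM2-2A (0.09) and -0.02 for Ctrl MCM2-2A against Ctrl (-0.06). No member was called by edgeR or DE by DESeq2, with 2, 0 and 1 members at an unadjusted p under 0.05, while 0%, 0.31% and 22.3% of all features were called. B2_Mm1a was at 4782, 3721 and 4420 CPM in Ctrl, 2533, 4671 and 4846 CPM in dPOLE4, 3133, 3457 and 4474 CPM in Ctrl MCM2-2A and 3695, 3520 and 4498 CPM in dPOLE4 MCM2-2A. All 4 groups overlapped, and dPOLE4 replicate 1 was the lowest library. The SINE share was 2.95%, 3.07%, 2.96% and 3.18% in these groups, and dPOLE4 MCM2-2A lay above Ctrl MCM2-2A with no overlap (by 0.217 percentage points, exact permutation p = 0.1).

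The makeup within families also differed. B2_Mm1a was 40.9%, 40.2% and 43.0% of B2 counts in Ctrl at T0 and 38.9%, 27.5% and 29.8% at T60, with replicate 1 again the highest at T60. The mean share went from 41.7% to 28.3% in dPOLE4, from 38.7% to 28.9% in Ctrl MCM2-2A and from 38.8% to 29.7% in dPOLE4 MCM2-2A, and no libraries overlapped in any of the 4 conditions (exact permutation p = 0.1 each). The share of B2_Mm2 was higher at T60 by 11.5 to 17.6 percentage points, while its CPM fell.

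Within B1, the subfamilies B1_Mm, B1_Mus1 and B1_Mus2, the younger ones, were 50.9%, 50.5% and 50.4% of counts in Ctrl at T0 and 58.3%, 53.2% and 53.2% in Ctrl MCM2-2A, with no overlap (exact permutation p = 0.1). Ctrl MCM2-2A replicate 1, the library that stood apart, held the highest share. At 96 h the libraries were at 56.2%, 55.1% and 55.1% in Ctrl and 58.4%, 58.4% and 59.7% in Ctrl MCM2-2A (exact permutation p = 0.1). The lines overlapped at T12 (means 53.9% in Ctrl MCM2-2A and 52.4% in Ctrl, exact permutation p = 0.4) and at T24 (exact permutation p = 0.2). At 96 h dPOLE4 (57.2%) also lay above Ctrl (55.4%) with no overlap (exact permutation p = 0.1). At T60 the difference between the lines in this share went from -0.107 to 2.48 percentage points when single libraries were left out, and it was negative without Ctrl MCM2-2A T60 replicate 3.

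Replicates varied together for most members. Over the 48 RA libraries, deviations from the group mean of 26 members had r of 0.78 or more with the median of the other members, and a within-group SD of 0.07 to 0.13 on the log2 scale. The other 5 did not follow: r was 0.22 for B1_Mm, 0.35 for B2_Mm2, -0.26 for B2_Mm1t, -0.30 for B2_Mm1a and -0.05 for PB1D7. Over the 12 libraries at 96 h, r was 0.64 for B1_Mm and 0.64 for PB1D7. There the B2 members stayed apart, at 0.11 for B2_Mm2, -0.14 for B2_Mm1t and -0.19 for B2_Mm1a. These are descriptions over libraries that share depth and scaling.

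B2_Mm1a and B2_Mm1t deviated together (r = 0.99), and had SDs of 0.32 and 0.31, against 0.10 for B2_Mm2. MIRb deviated with the nuclear lncRNA Kcnq1ot1 (r = 0.85) and Malat1 (r = 0.69) and opposite to Bc1 (r = -0.71). Members of other families did likewise, such as B3 (r = 0.88 with Kcnq1ot1 and -0.75 with Bc1) and RSINE1 (0.89 and -0.74). For B1_Mus1 r was 0.83 with Kcnq1ot1 and -0.49 with Bc1. B2_Mm1a deviated with Rny1, a small cytoplasmic Pol III RNA (r = 0.52), and Bc1 (r = 0.44), and little with Kcnq1ot1 (r = -0.11). Rny1 and Bc1 were its highest of the Pol III RNAs compared. With Rn7sk, Rn7s1, Rn7s2, Rmrp and Rpph1 the r of B2_Mm1a was 0.155 to 0.254. B2_Mm2 deviated with Rny1 (r = 0.67) and Kcnq1ot1 (r = 0.47), and little with Bc1 (r = -0.135). The levels of some of these RNAs moved with members within groups, and their part in the group differences was not tested.

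**Figure D5:**
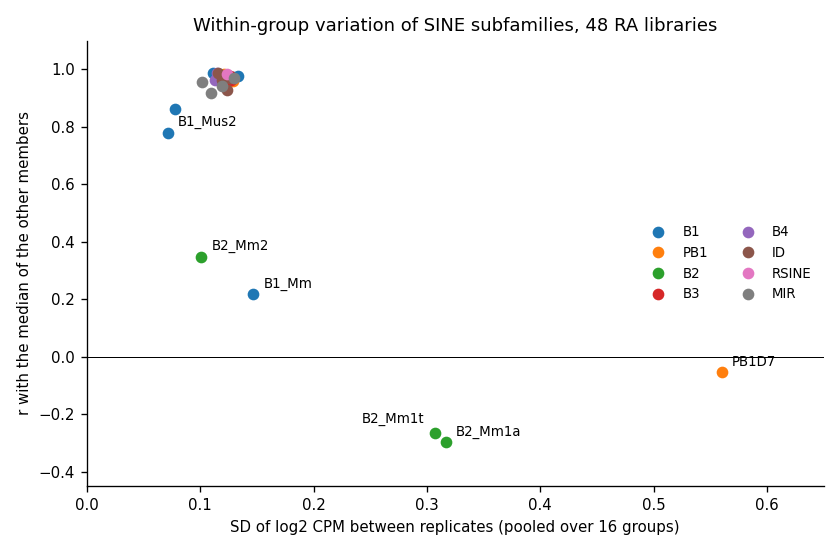
Within-group SD on the log2 scale of each of the 31 SINE subfamilies over the 48 RA libraries, against the correlation of its deviations with the median of the other members. A group of 26 lies at r of 0.78 or more and low SD, while B1_Mm, B2_Mm1a, B2_Mm1t, B2_Mm2 and PB1D7 lie apart.

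Of 30 genes of the Pol III machinery, 17 were lower and 5 higher at T60 in Ctrl (adjusted p under 0.01, edgeR), with a median of -0.33, beside 32.7% of all features lower and 34.2% higher. Polr3g, the Pol III subunit of pluripotent cells, was at 65.0, 68.9 and 69.5 CPM at T0 and 33.6, 33.3 and 37.5 CPM at T60 (log2 fold change -0.98, SE 0.07, adjusted p = 8.24e-09). Its paralog Polr3gl, used in differentiated cells, went from 2.72, 3.59 and 3.79 CPM to 5.29, 4.66 and 6.14 CPM (0.64, SE 0.19, adjusted p = 0.00593). Neither pair of groups overlapped. Among the 11 DE and lower were also Polr3f (-1.13), Gtf3c6 (-0.88) and Bdp1 (-0.79), a subunit of TFIIIB, while Brf1, another TFIIIB subunit, was higher (0.41). At T24, when B2_Mm1a was already DE, 12 of the list were lower and 1 higher, beside 20.5% and 22.4% of all features, and none was DE.

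Of 8 Pol III RNA genes outside SINEs that were tested, 5 were higher at T60 in Ctrl and none lower, beside 34.2% of all features higher, with a median of 0.52. In the other conditions fewer were called. In dPOLE4, 4 were higher and Rny1 was lower (-1.03), with 2 higher in Ctrl MCM2-2A. In dPOLE4 MCM2-2A 1 was higher and the median was -0.15. Of all features, 4809 of 18671 in dPOLE4 and 5036 of 18967 in Ctrl MCM2-2A were DE and higher. In dPOLE4 MCM2-2A it was 4289 of 18570. DE is a stricter threshold than the one for the Pol III RNA genes here. Bc1, the relative of ID, went from 22.0, 21.6 and 18.1 CPM to 66.0, 44.5 and 61.0 CPM (1.46, SE 0.12), with no overlap. Rn7s1, the relative of B1, went from 1971, 1212 and 1049 CPM to 2848, 2911 and 3050 CPM (1.04, SE 0.16), also with no overlap. Its near-identical copy Rn7s2 rose by 1.14 (SE 0.15), and reads can be split between them. At T12, when B2_Mm1a spread widely, Rny1 (2.15, SE 0.21) and Rny3 (1.35, SE 0.29) were DE and higher, as was Bc1 (0.69). Of the nuclear lncRNAs, Malat1 (-0.68), Neat1 (-0.78) and Kcnq1ot1 (-0.60) were DE and lower at T12. At T60 in Ctrl, Kcnq1ot1 was DE and lower (-1.06), while Neat1 (0.65) and Airn (3.25) were DE and higher.

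Of 20 genes that silence repeats in chromatin, 12 were lower and 4 higher at T60 in Ctrl, beside the same 32.7% and 34.2% of all features, with a median of -0.48. DE and lower were Dnmt3b (-2.28), a DNA methyltransferase, Trim28 (-1.62), the corepressor of KRAB zinc finger proteins, and Setdb1 (-0.90), an H3K9 methyltransferase, while Suv39h1, another H3K9 methyltransferase, was DE and higher (1.68). Adnp, which binds SINEs in the ChAHP complex, was higher (0.31). Of 9 genes for proteins that bind SINE RNA, 6 were lower and 1 higher against the same shares. DE and lower were Dhx9 (-0.90), an RNA helicase, and Adar (-0.76), which edits double-stranded RNA. The 1 higher gene was Adarb1, also DE (0.88). Between the lines at T60, 3 of the 30 Pol III machinery genes were higher and 4 lower, beside 14.7% and 15.7% of all features, with none DE. Of the silencing genes, Dnmt3b (0.75) and Cbx5 (0.59) were DE and higher and Cbx1 (-0.74) DE and lower in Ctrl MCM2-2A. Before T60, Maf1 of the machinery list was DE and higher in Ctrl MCM2-2A, at T0 (0.78), T12 (0.70) and T24 (0.68). So was Bc1 at T0 (1.265), T12 (0.99), T24 (1.195) and 96 h (0.68). Other genes of these 2 lists at those times are not given here.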

How the data were processed

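Strand-specific libraries of rRNA-depleted total RNA were made from 60 samples, 3 in each of 20 groups. Per the study's methods, the authors trimmed reads with cutadapt (4.2 in the submitters' processing notes), mapped them to mm10 with STAR keeping multimapping reads, and counted genes and repeats with TEcount, which divides multimapping reads among repeats. The deposited values are whole-number counts per gene or repeat subfamily, in a table for RA and one for 96 h. The strand setting of the counting is not given in the sources used here, so antisense reads cannot be told apart. Near-identical subfamilies share reads, and reads within introns or other transcripts count for a subfamily. Times follow the sample titles; the labels' protocol text lists 24, 48 and 60 h of RA.

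The 31 members were taken by name with at least 100 counts. The members and gene lists were chosen with earlier results of these data known. Each comparison was fitted on the libraries compared alone (R 4.3.3, edgeR 4.0.16, glmQLFit and glmQLFTest, TMM scaling, filterByExpr with a minimum count of 10 and a total of 15), over all genes and repeats, with Benjamini-Hochberg adjustment. CPM was scaled by TMM within each table, and no test was made across the tables. DE required an adjusted p under 0.01 and a log2 fold change beyond 0.58. Shares of counts were compared with two-sided exact permutation tests. The fits were tested on simulated data. Groups share replicate numbers in the sample titles. Same-numbered samples deviated together in all 3 pairs (r over 0.1) in 5 comparisons. These were dPOLE4 against Ctrl in each line at T0 and 96 h, and the lines at 96 h. All reported fits and permutation tests were unpaired, in these 5 comparisons as elsewhere. The replicate block was fitted as an alternative in every comparison. Named were, in each family, the member with the most counts, up to 5 DE members per direction and comparison, the top 3 members per direction in the comparison with the most calls, and DE genes of the lists (Pol III machinery, Pol III RNA genes, repeat silencing, SINE RNA binding, nuclear lncRNAs and the mESC, RA and neural, endoderm and fibroblast markers) besides Polr3g, Polr3gl, Brf1, Bdp1, Adnp, Pole4 and Mcm2; others named were chosen after their values were seen. Alternatives were DESeq2 1.42.0, its size factors, TMM factors from genes or from the other repeats, other filters, no fold minimum, other denominators and members for shares, a replicate block and leaving out each library. The sequence of Bc1 was read from annotated transcripts of GRCm38. Permutation tests used scipy 1.17.1.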

Additional observations from a re-analysis of the deposited data

How the results depend on the processing

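The counts of DE members (24 comparisons) and the medians were within the same bounds with DESeq2's size factors, with TMM factors from genes only and with a filter of at least 10 counts in every library. Reads on SINE subfamilies are many, but whether depth or the spread of 3 libraries a group limits these tests more was not tested. Copies within transcripts, reads shared between near-identical subfamilies and the unknown strand setting limit what a count on a subfamily stands for, and no value here separates Pol III transcripts from reads within other transcripts. Where a cause of a change under an alternative is not given, the cause was not tested.

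Without the fold minimum, the count of called members was 1 (T12), 4 (T24) and 21 (T60) for Ctrl MCM2-2A against Ctrl, 20 and 19 for T12 and T24 against T0 in Ctrl, and 29 and 9 for T60 against T0 in dPOLE4 and dPOLE4 MCM2-2A, by construction. DESeq2 called 0 for Ctrl MCM2-2A against Ctrl at T60 (B1_Mm adjusted p 0.0264) and 1 for the interaction of Ctrl MCM2-2A and Ctrl, which had 3 without the filter on low counts.

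With TMM factors from the other repeats, which set the other repeats near 0 by construction, the counts were 0 for Ctrl MCM2-2A against Ctrl at T60, and 2, 3 and 2 for T12 and T60 against T0 in Ctrl and T60 against T0 in dPOLE4 MCM2-2A. The medians were then 0.0404, 0.0172 and 0.0456 for Ctrl MCM2-2A against Ctrl at T12, T24 and T60, 0.0179 and 0.0115 for dPOLE4 against Ctrl at T0 and T60, 0.0355 and -0.0578 for dPOLE4 MCM2-2A against Ctrl MCM2-2A at T24 and T60, 0.000898, 0.0078 and 0.0562 for T12, T24 and T60 against T0 in Ctrl, 0.0622, 0.0913 and 0.0191 for T60 against T0 in dPOLE4, Ctrl MCM2-2A and dPOLE4 MCM2-2A, and 0.0173 and -0.0165 for the interactions of Ctrl MCM2-2A and of dPOLE4 with Ctrl. B1_Mus2 at T60 in Ctrl was then at 0.0066.

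With a replicate block, 1 member was DE in the interaction of Ctrl MCM2-2A and Ctrl, where there was none without it, and no other count of calls changed beyond 1.5 times.

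Leaving out single libraries gave 0 to 1 DE members for Ctrl MCM2-2A against Ctrl at T60 and for dPOLE4 against Ctrl at T24, 18 to 30 for T60 against T0 in Ctrl, and 0 to 8 for the interaction of Ctrl MCM2-2A and Ctrl. Medians ran from -0.0653 to 0.0354 for dPOLE4 at T24, 0.14 to 0.32 for dPOLE4 at T60, -0.26 to -0.15 and -0.79 to -0.59 for T24 and T60 in Ctrl, -0.40 to -0.31 for T60 in dPOLE4, 0.27 to 0.45 for the interaction of dPOLE4, -0.34 to -0.10 for T60 in Ctrl MCM2-2A and -0.22 to 0.01 for Ctrl MCM2-2A against Ctrl at T0. The SINE share difference ran from -0.303 to 0.0432 (T0), -0.0957 to 0.218 (T12) and -0.0722 to 0.137 (96 h) points for Ctrl MCM2-2A against Ctrl, from -0.0991 to 0.156 (T12) and -0.101 to 0.0879 (T24) for dPOLE4, from -0.0223 to 0.362 for dPOLE4 MCM2-2A at T12 and from -0.196 to 0.0195 for T12 in Ctrl. The young B1 share ran from -0.107 to 2.48 for Ctrl MCM2-2A at T60, -1.14 to 0.615 (T12) and -1.94 to 0.295 (T60) for dPOLE4, -0.711 to 1.87 (T0), -0.344 to 1.70 (T12) and -1.93 to 0.173 (T60) for dPOLE4 MCM2-2A, and -2.05 to 0.184 for T60 in Ctrl. The B2_Mm1a share ran from -5.40 to 0.274 for Ctrl MCM2-2A at T60, -0.212 to 1.22 (T0), -1.38 to 1.80 (T12) and -2.45 to 1.22 (96 h) for dPOLE4, and -1.04 to 1.91 (T0), -0.368 to 3.97 (T12) and -0.878 to 1.45 (96 h) for dPOLE4 MCM2-2A.

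With B2_Mm2 in place of B2_Mm1a, a sign change that shares within 1 family bring about, the difference in share was 4.86, 8.12, 3.01, 5.44 and 3.37 points for Ctrl MCM2-2A against Ctrl (T0, T12, T24, T60, 96 h), -0.454, -0.504, 5.63 and 2.35 for dPOLE4 against Ctrl (T0, T24, T60, 96 h), -0.963, -2.74, 1.34 and -0.816 for dPOLE4 MCM2-2A against Ctrl MCM2-2A (T0, T12, T24, T60), -6.34, 6.39 and 11.5 for T12, T24 and T60 against T0 in Ctrl, and 17.6, 12.1 and 12.2 for T60 against T0 in dPOLE4, Ctrl MCM2-2A and dPOLE4 MCM2-2A. With B2_Mm1t it was 0.316 for dPOLE4 at T12 and -0.782 for dPOLE4 MCM2-2A at 96 h. With B1_Mm alone, the B1 share difference was -0.0192 for dPOLE4 MCM2-2A at T0 and 0.81 for T60 against T0 in Ctrl MCM2-2A. As a share of the counts on repeats, the SINE difference was -0.392 for Ctrl MCM2-2A at T12, 1.71 for T12 against T0 in Ctrl, 0.0325 for T60 against T0 in Ctrl MCM2-2A, -1.41 for dPOLE4 MCM2-2A at T60 and 0.506 for dPOLE4 at T24.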
